A study of Caenorhabditis elegans with 7 samples.

Results

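The genes described here build and maintain the sensory cilium of Caenorhabditis elegans. They are 38 genes, named one by one and found by their symbols, of 44968 annotated features counted in the series. They comprise 13 subunits of intraflagellar transport complex B (IFT-B), 3 of complex A (IFT-A), 6 subunits of the motors, 6 of the BBSome, 5 transition zone genes, 3 genes of the ciliary rootlet, cilium structure and dendrite, and 2 regulators. Messenger RNA was sequenced from whole first-stage (L1) larvae of the wild-type strain N2 that had hatched without food. The larvae fell into 2 groups by parental diet, with 4 libraries from progeny of parents under dietary restriction (DR A to D) and 3 from progeny of parents fed ad libitum (AL A to C). DR parents were grown with HB101 bacteria at 3.1 and AL parents at 25, for 96 hr in liquid culture at 100 µL per animal. The labels give the DR amount in ml per mL and the AL amount in mg per mL, whereas the deposited notes give mg per mL. The labels say that embryos were placed in the parental cultures, and the deposited notes say hatched arrested larvae. In both groups embryos were freed by bleaching and the progeny were collected after 24 hr in S-basal, so neither group of larvae had been fed. The temperature given for all 7 libraries was 20 °C. The submitters describe the libraries as biological replicates.

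In C. elegans, cilia are found only at the dendrite endings of sensory neurons, where they carry receptors and channels for odours, tastes, touch and temperature. Cilium proteins are made in the cell body and moved along the axoneme by intraflagellar transport: kinesin-2 motors carry IFT trains towards the tip, and cytoplasmic dynein-2 brings them back. IFT-B, IFT-A and the BBSome make up the trains and their cargo adaptors, the transition zone gates the base of the cilium, and the RFX transcription factor DAF-19 switches on many of these genes through the X-box motif. Mutants in many of them cannot take up dye through their amphid neurons, and several are defective in sensing chemicals, osmotic strength or dauer pheromone.

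No cilium gene differed between DR and AL progeny in the test, and the data bound the difference closely. All 38 genes passed the filter on low counts. With edgeR's quasi-likelihood test and Benjamini-Hochberg adjustment over 14867 genes, 0 of 38 passed an adjusted p of 0.05, against 0.0135% of all genes tested. Their adjusted p-values lay between 0.517 and 0.997. At an unadjusted p under 0.05 there were also 0 of 38, against 10.7% of all genes, and DESeq2, limma-voom and the edgeR exact test each called 0 of 38 at either threshold. Under 7 of the 20 alternative fits, 1 or 2 cilium genes had an unadjusted p under 0.05, 8 different genes in all, and none passed after adjustment. Fitted log2 fold changes of DR over AL lay between -0.30 for dyf-7 and 0.32 for che-13, which is 0.814-fold to 1.25-fold. Their median was 0.03, against 0.01 over all genes tested, with 23 of 38 above 0, against 51.6% of all genes, and 15 below, against 48.4%. In whole animals, fewer ciliated cells and less RNA per cell cannot be told apart. Each value is a level relative to the counts of the whole library, ribosomal RNA included.

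A test that is not passed does not show equal levels, so the 95% interval of each fold change was read as well. These intervals come from the fit without a term for the file-name prefix described below, and are not adjusted for the number of genes. With that prefix as a covariate, fitted log2 fold changes lay between -0.30 (che-3) and 0.61 (mksr-1), and intervals were not read. For 33 of 38 cilium genes (86.8%) the whole interval lay within 1.5-fold in either direction, as it did for 57.5% of all genes tested. For 38 of 38 it lay within 2-fold, against 81.7% of all genes. The 5 genes with wider intervals than 1.5-fold were che-13 (0.954 to 1.64), ift-20 (0.806 to 1.63), mks-1 (0.784 to 1.51), mksr-1 (0.733 to 1.99) and dyf-7 (0.569 to 1.16). The median size of the log2 fold change, whatever its sign, was 0.0864 for the cilium genes and 0.15 for all genes.

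**Figure D1:**
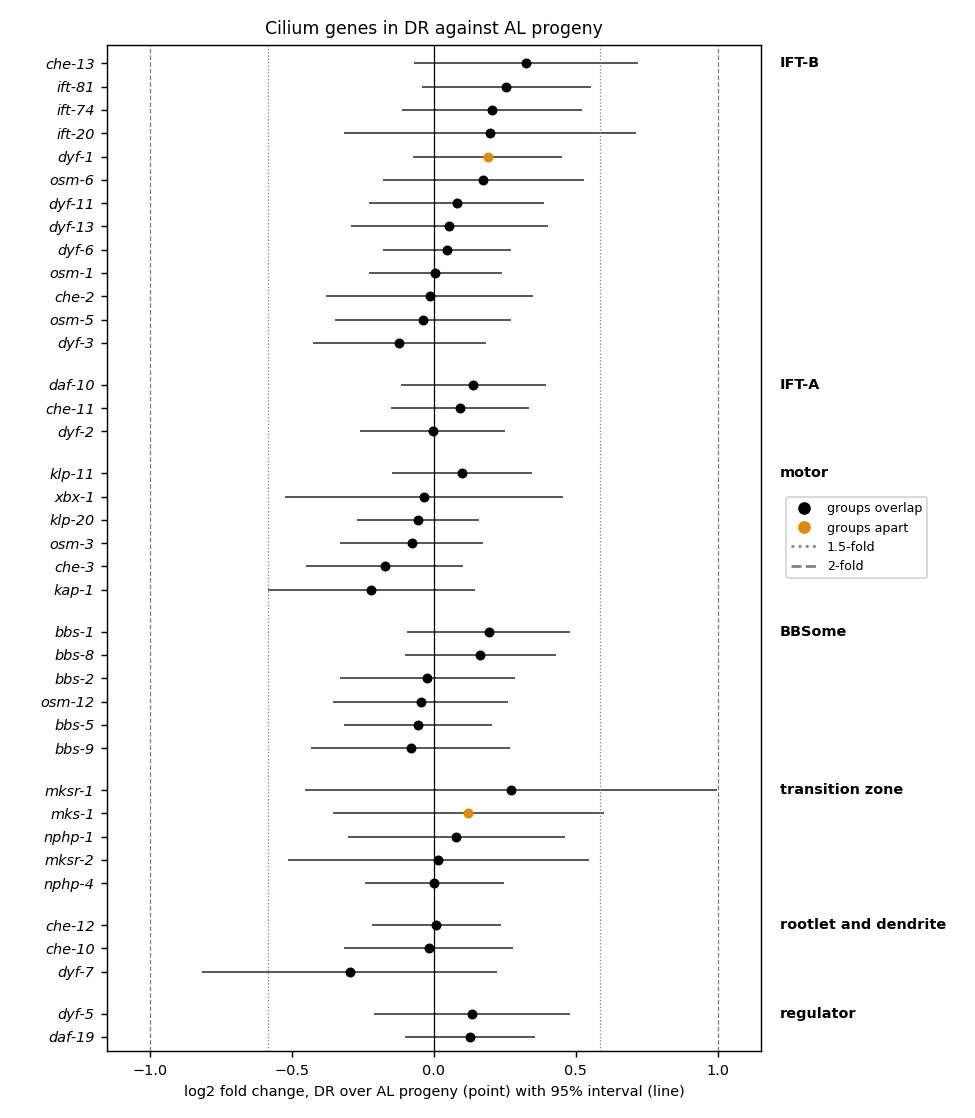
Log2 fold change of DR over AL progeny (horizontal axis) for each of the 38 cilium genes, grouped by role, with points for the fitted value and lines for the 95% interval; dotted and dashed verticals stand at 1.5-fold and 2-fold. All 38 intervals cross 0 and stay inside 2-fold, and the genes whose libraries do not overlap between the groups, dyf-1 and mks-1, are in orange.

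The libraries held between 16626117 (DR D) and 22952310 (AL A) counts in annotated features. CPM are counts scaled to the library total, and the CPM of genes were also adjusted by TMM factors. A count of 0 in a library allows up to 0.131 to 0.180 CPM without that adjustment, and this floor covers counting error only. Cilium genes stood well above it, with 19 to 3963 counts per gene and library. Ribosomal RNA took 22.5% of the feature counts of DR D and 7.54% to 12.2% in the other 6 libraries. File names carry the prefix BB1 for DR A, DR B, DR C and AL A, and BB2 for DR D, AL B and AL C, and the labels do not say what the prefix stands for. Within the prefixes, 16 of 38 cilium genes had fold changes of opposite sign. Relative to the fit of all 7 libraries, 10 moved by more than the spread between libraries within BB1 and 15 within BB2. Among them, the log2 fold change of osm-6 was 0.47 within BB1 and -0.19 within BB2, that of ift-20 was 0.73 and -0.09, and that of che-10 was -0.01 and -0.32. In each prefix 1 group has a single library (AL A in BB1, DR D in BB2). The fit of all 7 libraries gave 23 of 38 cilium genes with fold changes above 1. With the prefix as a covariate there were 28, and 7 genes changed direction. With the ribosomal RNA share as a covariate, a fit added after seeing the data, there were 19, and 10 genes changed direction. The cause of these shifts was not tested.

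Levels of different genes were compared per kilobase of annotated exon, averaged over the 7 libraries. The cilium genes ranged over 24.4-fold on this scale, led by the regulator daf-19 (26.5 ± 2.56 CPM per kb), the kinesin-II subunit klp-11 (24.1 ± 2.67) and the rootletin gene che-10 (23.7 ± 3.11, SD, n = 7). These 3 did not separate from one another across libraries. Next came klp-20 at 9.63 ± 0.567 CPM per kb, whose range over the libraries lay below that of che-10. This was 1 of 37 steps between neighbours in the order where the ranges did not overlap. The median cilium gene stood at 4.00 CPM per kb, against 8.81 for the 13984 protein-coding genes tested, and 34 of 38 were at or below that protein-coding median. At the low end were xbx-1 (1.81), mksr-1 (1.75), dyf-7 (1.38) and mks-1 (1.09 CPM per kb).

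**Figure D2:**
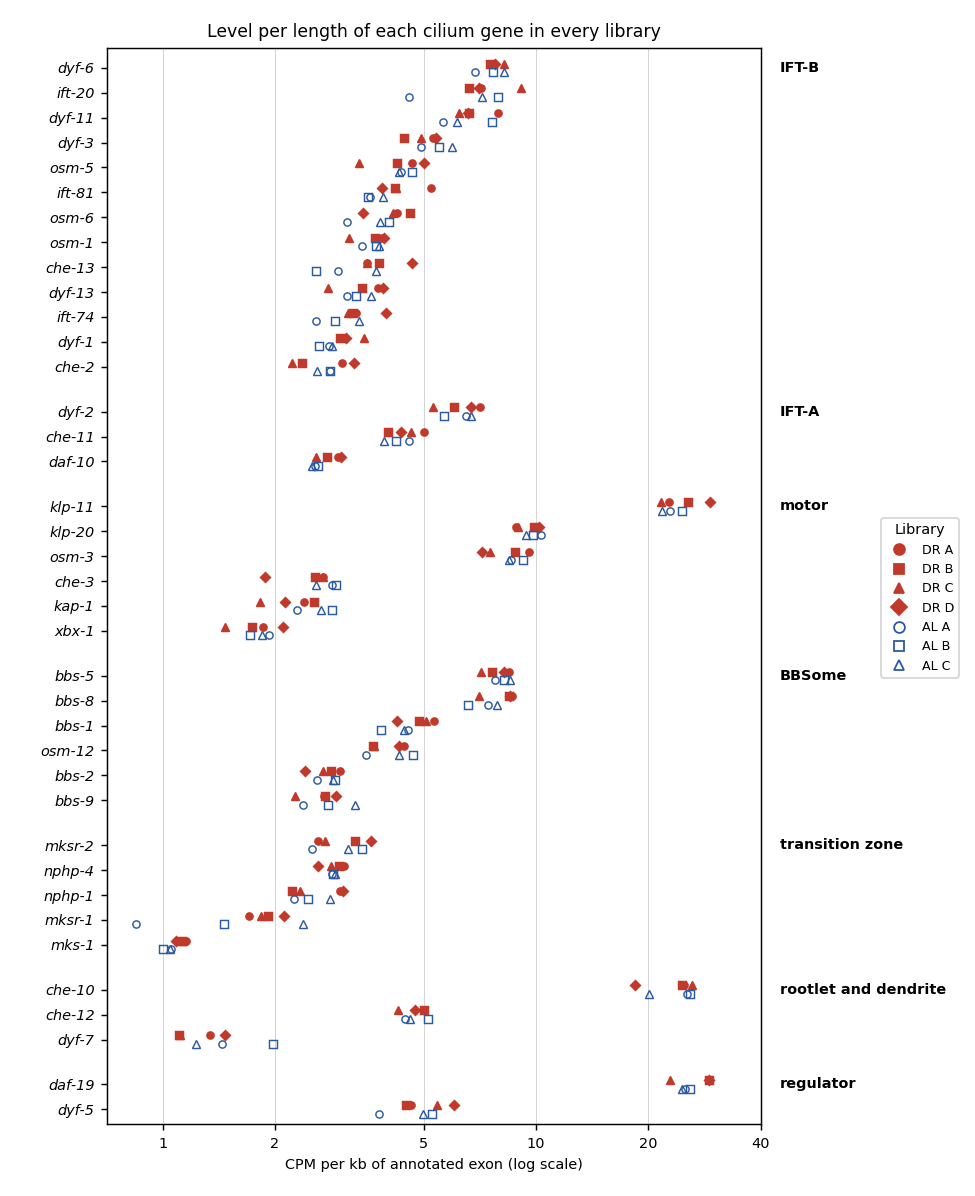
Level of each cilium gene in CPM per kb of annotated exon (horizontal log axis) in each of the 7 libraries, with filled red symbols for DR and open blue symbols for AL progeny. For 36 of 38 genes the red and blue symbols overlap, while genes differ from each other by up to 24.4-fold in their means.

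IFT-B is the core of the anterograde train. Of its 13 genes, 10 had fitted fold changes above 1 and 3 below, with a median log2 fold change of 0.08, and 0 passed the test. ift-81 (F32A6.2), which with ift-74 is known to bind tubulin cargo, had 11.8, 9.48, 9.55 and 8.75 CPM in DR A to D, against 8.08, 8.03 and 8.78 CPM in AL A to C. Of the DR libraries, DR A stood highest, and DR D was just inside the AL range. Its log2 fold change was 0.26 ± 0.14 (SE), with an unadjusted p of 0.0829, the smallest among the cilium genes, and an adjusted p of 0.517 by edgeR's quasi-likelihood test. dyf-1 (F54C1.5), the IFT70 subunit, had 9.54, 9.44, 11.01 and 9.84 CPM in DR A to D, against 8.82, 8.33 and 9.02 CPM in AL A to C. Every DR library of dyf-1 was above every AL library, although the gap was small beside the model's error, with a log2 fold change of 0.19 ± 0.12 (SE) and an adjusted p of 0.582 by the same edgeR test. Non-overlap of this kind was seen in 2 of 38 cilium genes, against 11.9% of all genes tested in either direction. Both were higher in DR, where non-overlap was found for 5.97% of all genes, and 0 were lower, against 5.88%.

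dyf-6 (F46F6.4), the IFT46 subunit and the highest of the complex per length, had 17.9, 17.5, 18.99 and 18.02 CPM in DR A to D, against 15.9, 17.8 and 18.96 CPM in AL A to C. Its DR libraries lay close together, with DR C and AL C nearly equal at the top. che-2 (F38G1.1), the IFT80 subunit and near the lower end, had 7.12, 5.55, 5.22 and 7.67 CPM in DR A to D, against 6.61, 6.61 and 6.09 CPM in AL A to C. Here the DR libraries spread to both sides of the AL libraries. Per length, the 13 IFT-B genes lay between 2.72 and 7.72 CPM per kb, a span of 2.84-fold, and 0 of 12 neighbouring pairs in their order were separated across libraries.

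The remaining IFT-B genes are given by their group means. che-13 (IFT57) averaged 5.85 ± 0.808 CPM in DR and 4.65 ± 0.877 CPM in AL, the highest fold change of the 38. ift-74 averaged 8.80 ± 0.968 CPM in DR and 7.61 ± 1.02 CPM in AL. osm-6 (IFT52) averaged 6.19 ± 0.743 CPM in DR and 5.52 ± 0.716 CPM in AL, and for these 3 genes the libraries of the groups overlapped. osm-1 (IFT172) averaged 22.1 ± 2.10 CPM in DR and 21.99 ± 1.24 CPM in AL. osm-5 (IFT88), the homologue of the mouse polycystic kidney gene Tg737, averaged 11.2 ± 1.84 CPM in DR and 11.5 ± 0.496 CPM in AL. Both are long-known chemosensory and osmotic avoidance genes, and their means differed by less than 1 SD. dyf-3 (the CLUAP1 homologue) averaged 7.004 ± 0.614 CPM in DR and 7.62 ± 0.716 CPM in AL. dyf-11 (IFT54) averaged 11.7 ± 1.28 CPM in DR and 11.1 ± 1.79 CPM in AL. dyf-13 (IFT56) averaged 6.41 ± 0.942 CPM in DR and 6.17 ± 0.466 CPM in AL. ift-20, the smallest of the set at 0.463 kb of exon, is thereby among the genes with fewest reads, and averaged 3.46 ± 0.519 CPM in DR and 3.03 ± 0.809 CPM in AL (SD, n = 4 and 3 throughout).

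IFT-A is needed for the return journey and for entry of membrane proteins. Its 3 genes gave 2 fold changes above 1 and 1 below, with a median log2 fold change of 0.09. daf-10 (F23B2.4), the IFT122 subunit, whose mutants are abnormal in dauer formation, had 10.7, 10.1, 9.39 and 10.9 CPM in DR A to D, against 9.34, 9.51 and 9.17 CPM in AL A to C. Its 3 AL libraries were nearly equal, and DR C alone of the DR libraries lay among them. The log2 fold change was 0.14 ± 0.12 (SE), with an adjusted p of 0.678 by edgeR's quasi-likelihood test. dyf-2 (ZK520.3), the IFT144 subunit, had 29.6, 25.3, 22.3 and 28.0 CPM in DR A to D, against 27.2, 23.7 and 28.1 CPM in AL A to C, with full overlap. che-11 (IFT140) averaged 19.8 ± 1.89 CPM in DR and 18.5 ± 1.44 CPM in AL. These 3 IFT-A genes kept one order per length in separate ranges, dyf-2 above che-11 above daf-10. The ratio of dyf-2 to daf-10 per length lay between 2.06 and 2.67 over the 7 libraries.

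Of the 6 motor genes, 1 had a fold change above 1 and 5 below, with a median log2 fold change of -0.07, and 0 passed the test. che-3 (F18C12.1), the dynein-2 heavy chain that drives retrograde transport, had 33.8, 32.1, 33.9 and 23.6 CPM in DR A to D, against 35.8, 36.6 and 32.3 CPM in AL A to C. DR D was far below the other libraries, while DR A and DR C lay within the AL range. The log2 fold change of che-3 was -0.17 ± 0.12 (SE), with an adjusted p of 0.630 by edgeR's quasi-likelihood test. Within prefix BB1 it was -0.10, and within BB2, where DR D is the single DR library, -0.53. xbx-1 (F02D8.3), the dynein-2 light intermediate chain, had 2.37, 2.21, 1.88 and 2.68 CPM in DR A to D, against 2.46, 2.18 and 2.35 CPM in AL A to C. DR D was the highest library for xbx-1 and the lowest for che-3. The ratio of che-3 to xbx-1 per length was accordingly 1.45, 1.47, 1.83 and 0.894 in DR A to D, against 1.47, 1.70 and 1.39 in AL A to C.

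The anterograde motors are heterotrimeric kinesin-II (KLP-11, KLP-20 and KAP-1), which works in the middle segment, and homodimeric OSM-3, which goes on to the distal segment. klp-11 (F20C5.2) had 54.9, 61.7, 52.4 and 70.7 CPM in DR A to D, against 55.2, 59.5 and 52.8 CPM in AL A to C. DR D was highest, and the other libraries of both groups overlapped. Its log2 fold change was 0.10 ± 0.11 (SE). klp-20 averaged 21.5 ± 1.48 CPM in DR and 22.3 ± 1.06 CPM in AL. kap-1, the accessory subunit, averaged 5.21 ± 0.741 CPM in DR and 6.09 ± 0.668 CPM in AL, and osm-3 averaged 25.0 ± 3.41 CPM in DR and 26.5 ± 1.22 CPM in AL. Although the subunits of kinesin-II join in a single complex, their mRNA levels per length were unequal in every library. The ratio of klp-11 to klp-20 was 2.56, 2.59, 2.41 and 2.87 in DR A to D, against 2.21, 2.51 and 2.33 in AL A to C, and that of klp-20 to kap-1 lay between 3.45 and 4.93. In Ensembl release 115 the gene F20C5.11 covers 97.1% of the exon length of klp-11 on the same strand and is not among the counted features, so its reads cannot be told apart from those of klp-11.

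The BBSome links membrane proteins to IFT trains, and its genes are named for Bardet-Biedl syndrome in humans. Of 6 genes, 2 had fold changes above 1 and 4 below, with a median log2 fold change of -0.04. bbs-1 (Y105E8A.5) had 10.6, 9.62, 10.1 and 8.43 CPM in DR A to D, against 8.99, 7.62 and 8.78 CPM in AL A to C. All DR libraries except DR D were above the AL libraries, with a log2 fold change of 0.19 ± 0.13 (SE) and an adjusted p of 0.607 by edgeR's quasi-likelihood test. bbs-5 (R01H10.6), the highest of the complex per length, had 10.6, 9.53, 8.92 and 10.3 CPM in DR A to D, against 9.73, 10.3 and 10.7 CPM in AL A to C. bbs-9 (C48B6.8), the lowest, had 6.24, 6.28, 5.22 and 6.71 CPM in DR A to D, against 5.49, 6.38 and 7.53 CPM in AL A to C. For both, the groups overlapped. bbs-8 averaged 14.04 ± 1.29 CPM in DR and 12.5 ± 1.13 CPM in AL. bbs-2 averaged 6.36 ± 0.572 CPM in DR and 6.48 ± 0.376 CPM in AL, and osm-12, the BBS7 homologue, averaged 9.38 ± 0.948 CPM in DR and 9.71 ± 1.40 CPM in AL. Per length the 6 genes spanned 2.94-fold, with 2 of 5 neighbouring pairs separated across libraries.

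All 5 transition zone genes had fitted fold changes above 1, with a median log2 fold change of 0.08, and 0 passed the test. The log2 fold changes of nphp-4 (0.001) and mksr-2 (0.02) were close to 0. With library size only as the scaling, they were -0.04 and -0.03. Per length the 5 transition zone genes lay between 1.09 and 3.04 CPM per kb, all below the median cilium gene (4.00). mks-1 was the lowest of the 38. mks-1 (R148.1), a B9-domain gene whose human homologue is mutated in Meckel syndrome, had 2.18, 2.12, 2.14 and 2.04 CPM in DR A to D, against 1.99, 1.89 and 1.97 CPM in AL A to C. The groups did not overlap, but the counts behind these values were low and the log2 fold change was 0.12 ± 0.22 (SE), with an adjusted p of 0.860 by edgeR's quasi-likelihood test. mksr-1 (K03E6.4), also a B9-domain gene, had 1.65, 1.85, 1.77 and 2.04 CPM in DR A to D, against 0.821, 1.42 and 2.30 CPM in AL A to C. The AL libraries held both its lowest and its highest value, and AL A rested on the lowest count of any cilium gene, 19. Its log2 fold change was 0.27 ± 0.33 (SE), and it was 1.09 within prefix BB1, where AL A is the single AL library, and 0.13 within BB2. mksr-2 (Y38F2AL.2), the third B9-domain gene, had 1.79, 2.26, 1.88 and 2.49 CPM in DR A to D, against 1.73, 2.36 and 2.16 CPM in AL A to C, with overlap. Of the nephronophthisis homologues, nphp-1 averaged 5.61 ± 0.914 CPM in DR and 5.30 ± 0.605 CPM in AL, and nphp-4 averaged 11.8 ± 0.834 CPM in DR and 11.8 ± 0.137 CPM in AL.

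Of the rootlet, structure and dendrite genes, 1 had a fold change above 1 and 2 below. che-10 (F35D11.11), which encodes rootletin, the filament at the ciliary base, was the most abundant of the 38 in CPM. It had 167, 166, 176 and 124 CPM in DR A to D, against 171, 175 and 135 CPM in AL A to C. One library in each group, DR D and AL C, stood below the rest, and the log2 fold change was -0.02 ± 0.13 (SE). dyf-7 (C43C3.3), a zona pellucida domain protein that anchors the dendrite tip while the neuron is formed in the embryo, had 2.57, 2.12, 2.14 and 2.81 CPM in DR A to D, against 2.77, 3.78 and 2.35 CPM in AL A to C. AL B was highest and the others overlapped, with a log2 fold change of -0.30 ± 0.24 (SE) and an adjusted p of 0.661 by edgeR's quasi-likelihood test. che-12, a HEAT-repeat protein of amphid and phasmid cilia, averaged 21.1 ± 1.57 CPM in DR and 21.04 ± 1.55 CPM in AL.

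Both regulators had fold changes above 1. daf-19 (F33H1.1), the RFX factor, had 91.2, 91.7, 71.8 and 91.2 CPM in DR A to D, against 78.8, 81.5 and 77.3 CPM in AL A to C. DR A, DR B and DR D were nearly equal and above every AL library, and DR C was below every AL library. The log2 fold change was 0.13 ± 0.10 (SE), with an unadjusted p of 0.242 and an adjusted p of 0.667 by edgeR's quasi-likelihood test. Without DR C it was 0.21, with an unadjusted p of 0.0199 and an adjusted p of 0.362 by the same edgeR test. The counts pool the isoforms of daf-19, of which only some act in ciliated neurons. dyf-5 (M04C9.5), a kinase of the MAK family that limits cilium length, had 8.71, 8.44, 10.2 and 11.3 CPM in DR A to D, against 7.13, 9.92 and 9.36 CPM in AL A to C, with overlap.

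The libraries also differed from each other within the groups. The lowest value was in DR C for 12 of 38 genes and in DR A for 1, against 9 in AL A. Over all genes tested, DR C was lowest for 16.5% and DR A for 11.5%, against 11.9% for AL A. The highest value was in DR D for 12 of 38 genes and in DR A for 10, against 1 in AL A. Over all genes tested, DR D was highest for 21.6% and DR A for 12.4%, against 11.4% for AL A. Centred on the midpoint of the group means, the median cilium gene was at 0.08 log2 units in DR A and in DR D, at 0.03 in DR B and at -0.10 in DR C, against -0.07 in AL A, 0.03 in AL B and 0.02 in AL C. Libraries also differed by exon length. Over 14644 genes, the rank correlation of this centred level with exon length was -0.36 in DR C, 0.18 in AL A and 0.19 in AL B. In the other libraries it lay between -0.09 and 0.01. Over the 38 cilium genes it was 0.18, -0.01, -0.09 and -0.29 in DR A to D. In AL A to C it was 0.47, 0.04 and -0.35. The part of length in the cilium values was not tested. The summed level of the 38 genes was 718, 696, 660 and 667 CPM in DR A to D, against 668, 699 and 647 CPM in AL A to C, and the groups overlapped. che-10, daf-19 and klp-11 made up 41.0% to 45.9% of that sum. By role, summed IFT-B averaged 127 ± 7.01 CPM in DR and 120 ± 7.62 CPM in AL, and the summed motors averaged 145 ± 6.51 CPM in DR and 148 ± 7.20 CPM in AL (SD, n = 4 and 3). Between DR libraries the median coefficient of variation of a cilium gene was 11.1%, and between AL libraries 8.27%.

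**Figure D3:**
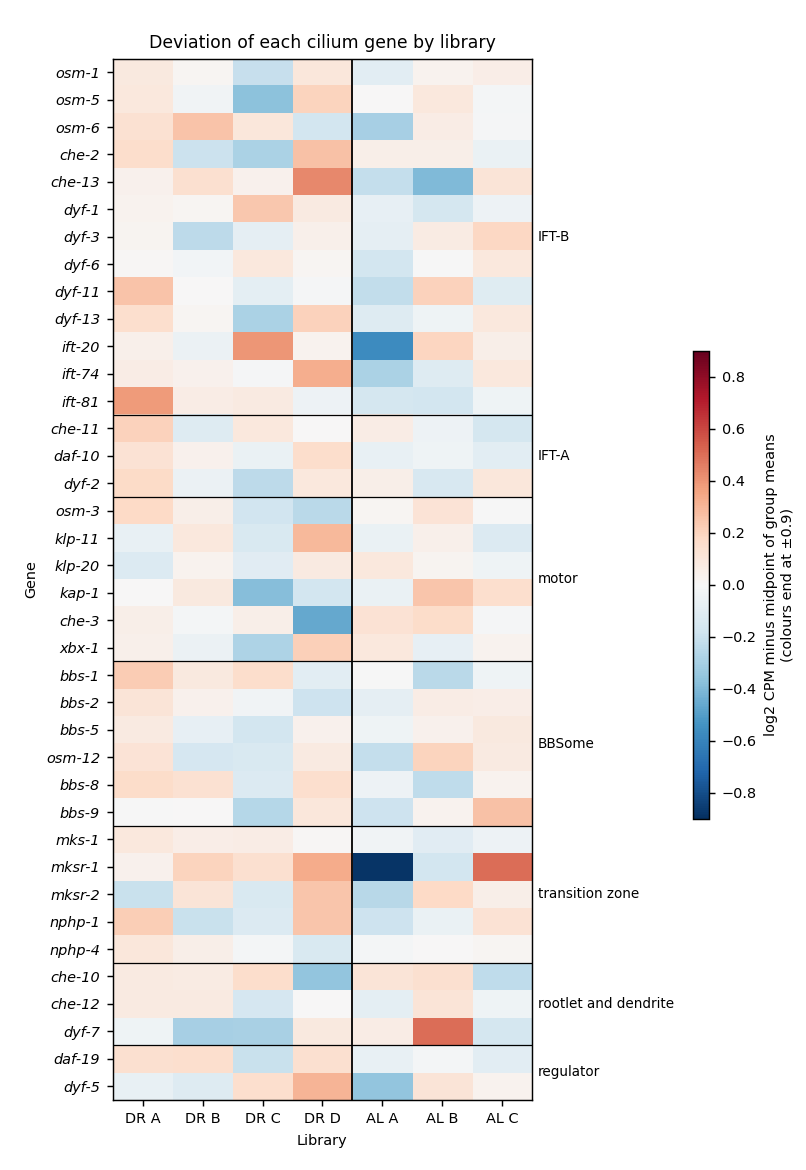
Log2 CPM of each cilium gene in each library (DR A to D left of the line, AL A to C right of it) minus the midpoint of the 2 group means, in red where higher and blue where lower. DR C is blue for many IFT-B, motor and BBSome genes, DR A and DR D are mostly red, and the strongest blue cell is mksr-1 in AL A.

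**Figure D4:**
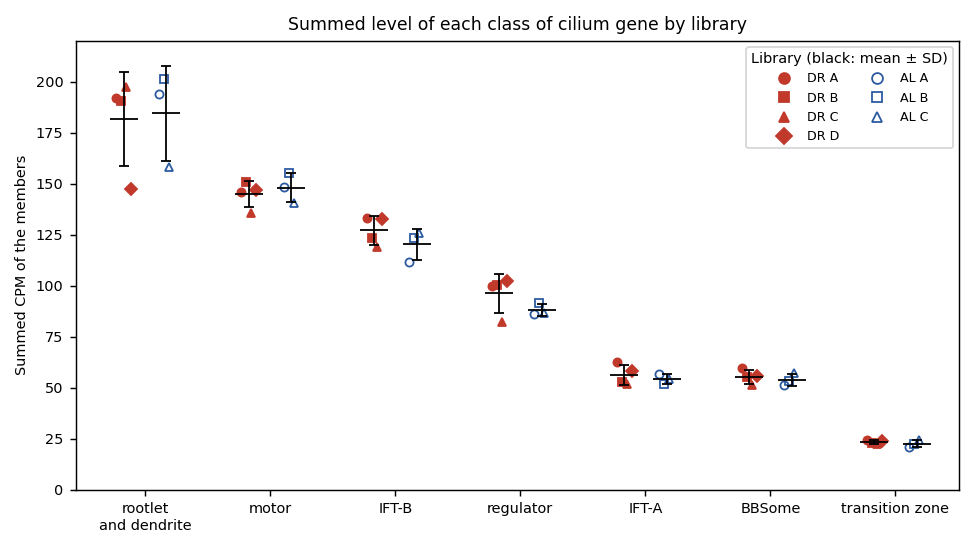
Summed CPM of the cilium genes by role in each library, DR progeny left of AL progeny within each role, with the mean and SD in black. The libraries of the groups overlap in every role, with DR D low for the rootlet and dendrite genes (148 CPM) and DR C low for the regulators (82.0 CPM).

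The 38 genes lie on all 6 chromosomes, 7 on I, 5 on II, 6 each on III, IV and V, and 8 on X. Their median exon length was 2.31 kb, against 1.38 kb for tested protein-coding genes, and 23 have 1 annotated transcript while 15 have several. Exons of another gene overlap those of 19, and for 5 the overlap exceeds 5% of exon length. Besides klp-11 these are ift-20 (14.7%, by spe-5 on the opposite strand), dyf-5, osm-3 and dyf-6. The overlapping gene is on the opposite strand for ift-20 and dyf-5 and on the same strand for klp-11 and dyf-6. For osm-3 there is a gene on each strand. The library kit did not keep the strand, so opposite-strand reads cannot be told apart either. Reads the counter marked ambiguous, 3.35% (AL A) to 4.81% (DR D) per library, were left out with its summary lines. Their effect on these genes was not tested.

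Other genes of the same cilia were read from a list of 46 (further IFT, transition zone, tubulin and kinase genes), of which 41 were tested. Of these, 28 had fold changes above 1 and 13 below, with a median log2 fold change of 0.10, and 0 passed the adjusted threshold. Unadjusted, 7 of 41 had a p under 0.05, against 10.7% of all genes tested. The groups did not overlap for 7 genes higher in DR, against 5.97% of all genes, and for 2 lower, against 5.88%. The smallest p belonged to ift-43, an IFT-A subunit, with 34.1, 34.2, 34.4 and 36.7 CPM in DR A to D, against 25.5, 27.7 and 29.6 CPM in AL A to C. All its DR libraries were above its AL libraries, with a log2 fold change of 0.34 ± 0.09 (SE) and an adjusted p of 0.371 by edgeR's quasi-likelihood test. dyf-18, a kinase gene, averaged 8.51 ± 0.840 CPM in DR and 6.34 ± 0.465 CPM in AL, and mapk-15, another, averaged 23.5 ± 3.60 CPM in DR and 18.3 ± 0.687 CPM in AL, both with an adjusted p of 0.376 by the same edgeR test.

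Of 16 channels, receptors and signalling genes that act in cilia, 15 were tested, 9 with fold changes above 1 and 6 below, and 0 passed the adjusted threshold. By edgeR's quasi-likelihood test, 3 of 15 had an unadjusted p under 0.05, against 10.7% of all genes tested. Groups did not overlap for 1 gene higher in DR, against 5.97% of all genes, and for 2 lower, against 5.88%. The 3 with the smallest p pointed in different directions. pkd-2, a polycystin channel, averaged 0.925 ± 0.325 CPM in DR and 2.05 ± 0.382 CPM in AL. Its counts were low, 197 over all 7 libraries together. tax-2, a subunit of the cGMP-gated channel, averaged 5.87 ± 1.45 CPM in DR and 3.76 ± 0.499 CPM in AL. osm-9, a TRPV channel, averaged 15.8 ± 2.64 CPM in DR and 20.4 ± 0.826 CPM in AL. The log2 fold changes of pkd-2, tax-2 and osm-9 were -1.16, 0.63 and -0.37. Adjusted p-values were 0.371, 0.376 and 0.384 by edgeR's quasi-likelihood test. The groups overlapped for tax-2 but not for pkd-2 and osm-9.

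Markers of neurons in general, with or without cilia, and of other tissues were set beside these values. All 20 pan-neuronal markers were tested, with 10 fold changes above 1 and 10 below, a median log2 fold change of -0.03, and sums of 4547 to 4861 CPM in DR against 4565 to 4786 CPM in AL. The most abundant of them, egl-3 and egl-21, averaged 1362 and 1131 CPM in DR against 1343 and 1070 CPM in AL. Of 15 amphid glia markers 14 were tested, with 3 above 1 and 11 below, 0 past the threshold, and sums of 542 to 609 CPM in DR against 631 to 639 CPM in AL, which did not overlap. Without the most abundant markers, lit-1 and itr-1, a choice made after their values were seen, the sums were 271 to 305 CPM in DR against 298 to 315 CPM in AL, which overlapped. Several of these markers are also made in other tissues, and their part in the cilium values was not tested. Intestine markers summed to 4488 to 6851 CPM in DR and 6522 to 7860 CPM in AL. Body wall muscle markers summed to 12221 to 15641 CPM in DR and 14999 to 15504 CPM in AL, and hypodermis markers to 445 to 502 CPM in DR and 472 to 541 CPM in AL. The muscle factor hlh-1 had 0 counts in all 7 libraries and was not tested, nor was the early intestine gene end-1, with 3 counts in all.

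The authors' deposited table of this comparison holds all 38 cilium genes among 13436. By the adjusted p of the authors' deposited table, 38 genes in all pass 0.05, and 0 of the cilium genes are among them. The lowest p of a cilium gene in the authors' deposited table is 0.153, for ift-81, with an adjusted p of 0.704.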

How the data were processed

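The authors deposited raw counts per annotated feature for each of 7 libraries. Bowtie 1.1.2, HTSeq and edgeR are named as the authors' tools, per the submitters' processing notes; the genome build is not given in the sources used here, so no coordinates are printed. Per the labels' protocols, poly(A) RNA was made into non-directional libraries and amplified over 12 PCR cycles. The authors' deposited workbook gives CPM per library, log2 fold changes of DR over AL, and p-values with adjusted p-values, for genes with CPM above 1 in 3 libraries. Reads in the summary lines of the counter (22.2% to 24.0% per library) were left out.

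All counts entered a two-sided, robust quasi-likelihood F-test of edgeR 4.0.16 under R 4.3.3, after filterByExpr and TMM scaling. Benjamini-Hochberg adjustment ran over 14867 genes, and the adjusted threshold was 0.05. The biological coefficient of variation common to all genes came to 0.162. Standard errors are the size of the log2 fold change divided by the square root of F, and 95% intervals use the t quantile of the fit. Exon lengths came from Ensembl release 115, which matched 44443 of 44968 features and may differ from the annotation the authors counted on. Alternatives used DESeq2 1.42.0, limma-voom (limma 3.58.1), other scalings and filters, the file-name prefix, rRNA features left out, and each library left out in turn; the rRNA share as a covariate was added after seeing the data. The fits were tested on simulated data with the dispersions of the real genes.

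The members and gene lists were chosen with earlier results of these data known. Genes given in every library are daf-19, the member of each role with the smallest p and those with the highest and lowest level per length, and members whose groups do not overlap; from each further cilium list, values are given for the 3 genes of smallest p.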

Additional observations from a re-analysis of the deposited data

Results flagged for a closer look

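Within the 4 DR libraries, 46 quantities (each cilium gene, the summed roles and the sum of all) were examined for a library far from the others, by the gap to its nearest neighbour over the range, and 5 stood out; chance marks about 1 in 20 groups. che-3 had 23.6 CPM in DR D, against 32.1 to 33.9 CPM in the other DR libraries. The summed rootlet and dendrite genes came to 148 CPM in DR D, against 190.5 to 197 CPM in the others. bbs-8 had 12.1 CPM in DR C, against 14.5 to 14.8 CPM in the others. daf-19 had 71.8 CPM in DR C, against 91.2 to 91.7 CPM in the others. The summed regulators, mostly daf-19, came to 82.0 CPM in DR C, against 100.0 to 102 CPM in the others.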

How the results depend on the processing

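Under 20 alternatives, 0 of 38 cilium genes passed the adjusted threshold in each, and their lowest adjusted p was 0.104, within file-name prefix BB2 (che-3). Unadjusted, p was under 0.05 for ift-74 and che-3 with the prefix as a covariate, mksr-1 within BB1, che-3 and klp-11 within BB2, daf-19 without DR C, ift-81 without DR D, che-13 without AL C, and bbs-1 with the rRNA share. The number of genes called among all tested, 2 as reported, was 77 with no filter on low counts, 41 with DESeq2, 24 with the edgeR exact test, 1 with library size only, and 0 with limma-voom, within prefix BB1, and with each library's rRNA share fitted as a covariate (chosen after seeing the data). It was 616 within BB2, where DR D is the single DR library and is assumed to vary like AL B and AL C. With a replicate block by letter, which leaves out DR D, it was 4, with 0 cilium genes; no label says that the letters pair the libraries, same-letter deviations correlated at 0.20, 0.27 and -0.10 (A, B and C), and AL A correlated best with DR C. Leaving out each library in turn gave 0 to 2 genes. The causes were not tested. The median log2 fold change of the cilium genes was 0.11 within BB1, lay between -0.01 and 0.11 over all alternatives, and was -0.00 to 0.07 with 1 library left out. Library size only moved the median of all genes to -0.03. Between 19 and 28 of the 38 genes had fold changes above 1 over all alternatives. Of the 38 genes, 14 kept their direction throughout (9 higher, 5 lower) and 24 did not. Other scalings turned che-12, mksr-2, nphp-4 and osm-1. The 95% intervals are centred on the fitted values and are not limits of detection. The smallest difference detectable with 4 and 3 libraries was not tested.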
